A study of Mus musculus with 16 samples.

Results

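The gene for NFAT5 and 7 genes that handle the organic osmolytes were followed through the RNA-seq libraries of mIMCD3 cells, a mouse inner medullary collecting duct line. The 8 genes were taken by name for their roles, not by a threshold on their values: Nfat5; Akr1b3 and Sord for sorbitol; Slc5a3 for myo-inositol; Slc6a12 for betaine; Slc6a6 for taurine; and Pnpla6 and Gpcpd1 for glycerophosphocholine. They were 8 of the 55367 gene symbols in the count files, and all 8 were among the 19509 genes that passed the filter on low counts. The study asked how activation of the transcription factor Nrf2, encoded by Nfe2l2, alters the response of these cells to hyperosmotic stress (HS).

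The 16 libraries formed 8 groups with 2 libraries each. WT cells were pretreated for 5 h with DMSO (the vehicle) or with sulforaphane (SFN, a plant isothiocyanate that activates Nrf2) at 10 μM. They were then kept in isosmotic medium of 300 mOsm, or in hyperosmotic medium of 600 mOsm for 1 h or 6 h. Nrf2-/- cells received SFN and were sampled in isosmotic medium and after 1 h of HS. They carried lentiviral Cas9 and guide constructs with blasticidin and puromycin selection, and whether the line was 1 clone or a pool was not stated. Nrf2-/- cells with DMSO or at 6 h were not analysed here, so genotype was compared under SFN alone, and the effect of the deletion and that of making the line cannot be told apart.

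Cells of the inner medulla face a high and changing salt and urea concentration. They balance it by gathering small neutral solutes, the organic osmolytes sorbitol, myo-inositol, betaine, taurine and glycerophosphocholine, which do not disturb proteins as salts do. NFAT5, also called TonEBP, is the transcription factor that binds tonicity-responsive enhancers (TonE) and turns on the transporters and enzymes that supply these solutes.

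The DNA at the start sites of 5 of the 8 genes was read from RefSeq windows on GRCm38.p6, the build also called mm10, each running from 250 bases before to 50 bases after a start. Nfat5, Sord, Slc5a3, Slc6a12 and Pnpla6 had 11 such windows in all; Akr1b3, Slc6a6 and Gpcpd1 had no entry. Each window was searched on both strands for TGGAAA, the core that the NFAT5 element shares with other NFAT sites, for the full TonE, which contains that core, and for TGACNNNGC, the core of the antioxidant response element bound by Nrf2. Among all 32851 windows, 21.43% held TGGAAA, 4.956% held the full TonE and 12.39% held TGACNNNGC. The 3 windows below are shown because 2 of them hold a full TonE, while the other is the start of Slc5a3 and also holds the start of its neighbour Mrps6. After 6 h of HS in DMSO cells, Slc5a3 had the largest fold change among those of the 8 genes that were detected in both groups. They are written 5′ to 3′ on the plus strand, with TGGAAA or its reverse complement in capitals.
Slc6a12, most upstream of its 5 starts, chr6:121342324-121342623: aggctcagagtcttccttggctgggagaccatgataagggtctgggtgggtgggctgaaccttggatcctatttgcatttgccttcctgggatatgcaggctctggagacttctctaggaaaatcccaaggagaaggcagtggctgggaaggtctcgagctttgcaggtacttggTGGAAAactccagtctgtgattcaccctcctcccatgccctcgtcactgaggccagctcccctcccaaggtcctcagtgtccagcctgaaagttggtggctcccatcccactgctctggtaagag
Pnpla6, middle one of its 3 starts, chr8:3515386-3515685: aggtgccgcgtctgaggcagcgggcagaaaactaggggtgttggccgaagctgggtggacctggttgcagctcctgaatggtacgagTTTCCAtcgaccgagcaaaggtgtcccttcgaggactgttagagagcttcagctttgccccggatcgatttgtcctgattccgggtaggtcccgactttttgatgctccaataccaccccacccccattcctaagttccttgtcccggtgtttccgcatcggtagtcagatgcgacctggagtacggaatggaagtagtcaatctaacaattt
Slc5a3, chr16:92058072-92058371: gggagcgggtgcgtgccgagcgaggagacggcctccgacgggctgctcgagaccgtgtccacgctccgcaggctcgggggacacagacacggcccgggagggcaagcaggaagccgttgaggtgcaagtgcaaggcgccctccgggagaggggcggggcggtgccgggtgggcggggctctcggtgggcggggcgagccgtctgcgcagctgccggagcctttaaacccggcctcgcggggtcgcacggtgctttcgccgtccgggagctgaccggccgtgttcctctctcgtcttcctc
In the Slc6a12 window the full TonE began 75 bases before the start. In the Pnpla6 window it lay on the minus strand, with the core 163 bases before the start. The most downstream Pnpla6 window held the core without a full TonE, and no other window of the 5 genes held TGGAAA. None of the 11 windows held TGACNNNGC. A match is only a match of letters, and a missing match says only that these letters are not in that window.

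Each gene was placed by its symbol on GRCm38. Nfat5 spans chr8:107293470-107379517, Pnpla6 spans chr8:3515384-3544267 and Sord spans chr2:122234749-122265340, all on the plus strand. Slc5a3 (chr16:92058322-92087473), Slc6a12 (chr6:121343076-121365775) and Slc6a6 (chr6:91684053-91759066) also lie on the plus strand, whereas Akr1b3 (chr6:34302434-34317478) and Gpcpd1 (chr2:132529082-132587729) lie on the minus strand. Slc5a3 shares 159 exonic bases, 1.457% of its exon length, with Mrps6 on the same strand, so reads from these bases could count for either gene. Slc6a6 shares 117 exonic bases, 1.38%, with the antisense transcript Gm44981, and Akr1b3 has close paralogs, among them Akr1b8 and Akr1b10, so a small part of their reads may belong elsewhere.

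Total counts per library lay between 34484296 and 50774875. The targeted gene Nfe2l2 was at 64.0 to 78.0 CPM (counts scaled to the size of the library) in the 8 WT libraries at isosmotic and 1 h and at 140 to 149 CPM in the 4 WT libraries at 6 h. In the 4 Nrf2-/- libraries it was at 11.02 to 11.6 CPM, below every WT library (log2 difference -2.67 in isosmotic medium, edgeR adjusted p = 1.14e-10). Of the 6 Nrf2 target genes used to check SFN (Nqo1, Hmox1, Srxn1, Gclm, Txnrd1 and Slc7a11), 6 rose with SFN in isosmotic WT cells, 6 at 1 h and 2 at 6 h. Of all genes, 2.84%, 0.0923% and 0.041% were called in either direction. Under SFN, 5 of the 6 were lower in Nrf2-/- than in WT cells in isosmotic medium and at 1 h. Slc7a11 was higher, with log2 differences of 0.84 (edgeR adjusted p = 0.0162) and 1.32 (0.000967). The biological coefficient of variation within a group ran from 0.0393 to 0.128 except in Nrf2-/- SFN cells at 1 h, whose 2 libraries stood apart from each other at 0.348. For the 8 genes, called changes by stress or genotype that rest on this pair are given with and without each of its libraries. Of 15 collecting duct and kidney epithelial markers, 12 had a median over the 16 libraries above 1 CPM, whereas Aqp2, Aqp3 and Elf5 stayed at or near 0. Gata3 and Scnn1a were at 0.134 and 0.683 CPM in their lowest libraries. The 15 markers summed to 2146 to 3185 CPM in the 8 WT libraries at isosmotic and 1 h. Their sums were 4449 to 4738 CPM in the 4 WT libraries at 6 h and 2947 to 3929 CPM in Nrf2-/- libraries. Summed proximal tubule markers were at 10.1 to 14.1 CPM in the 8 WT libraries at isosmotic and 1 h, 37.6 to 40.1 CPM in the 4 WT libraries at 6 h and 7.84 to 11.2 CPM in Nrf2-/- libraries. In the same 3 sets of libraries, endothelial markers summed to 0.0476 to 0.742, 3.999 to 5.36 and 0.161 to 0.878 CPM, leukocyte markers to 1.93 to 4.87, 6.85 to 10.5 and 2.50 to 7.48 CPM, fibroblast markers to 2.11 to 5.08, 4.73 to 7.10 and 0.980 to 2.12 CPM and intercalated cell markers to 0.0953 to 0.656, 0.985 to 1.68 and 0.0569 to 1.24 CPM. Thick limb markers summed to at most 0.185 CPM.

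Per length, Akr1b3 was the highest of the 8 genes in all 8 groups. In WT DMSO isosmotic cells its level was 42.9 ± 3.35 CPM per kb of exon (SD, n = 2), followed by Slc6a6 at 28.7 ± 3.95 and Nfat5 at 16.2 ± 3.38 CPM per kb. Pnpla6 (9.17 CPM per kb), Slc5a3 (4.40), Sord (3.66) and Gpcpd1 (2.78) were lower, and Slc6a12 was at 0. After 6 h of HS in DMSO cells, Akr1b3 reached 669 ± 18.5 CPM per kb, Slc6a6 118 ± 7.26 and Slc5a3 84.8 ± 6.85 CPM per kb. Slc5a3 thus moved from rank 5 to rank 3, ahead of Nfat5 at 52.4 ± 5.81 CPM per kb, and Gpcpd1 was last at 0.744 CPM per kb. Exon length here is the union of all annotated exons of a gene, which lowers the value of a gene with long alternative exons.

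**Figure D1:**
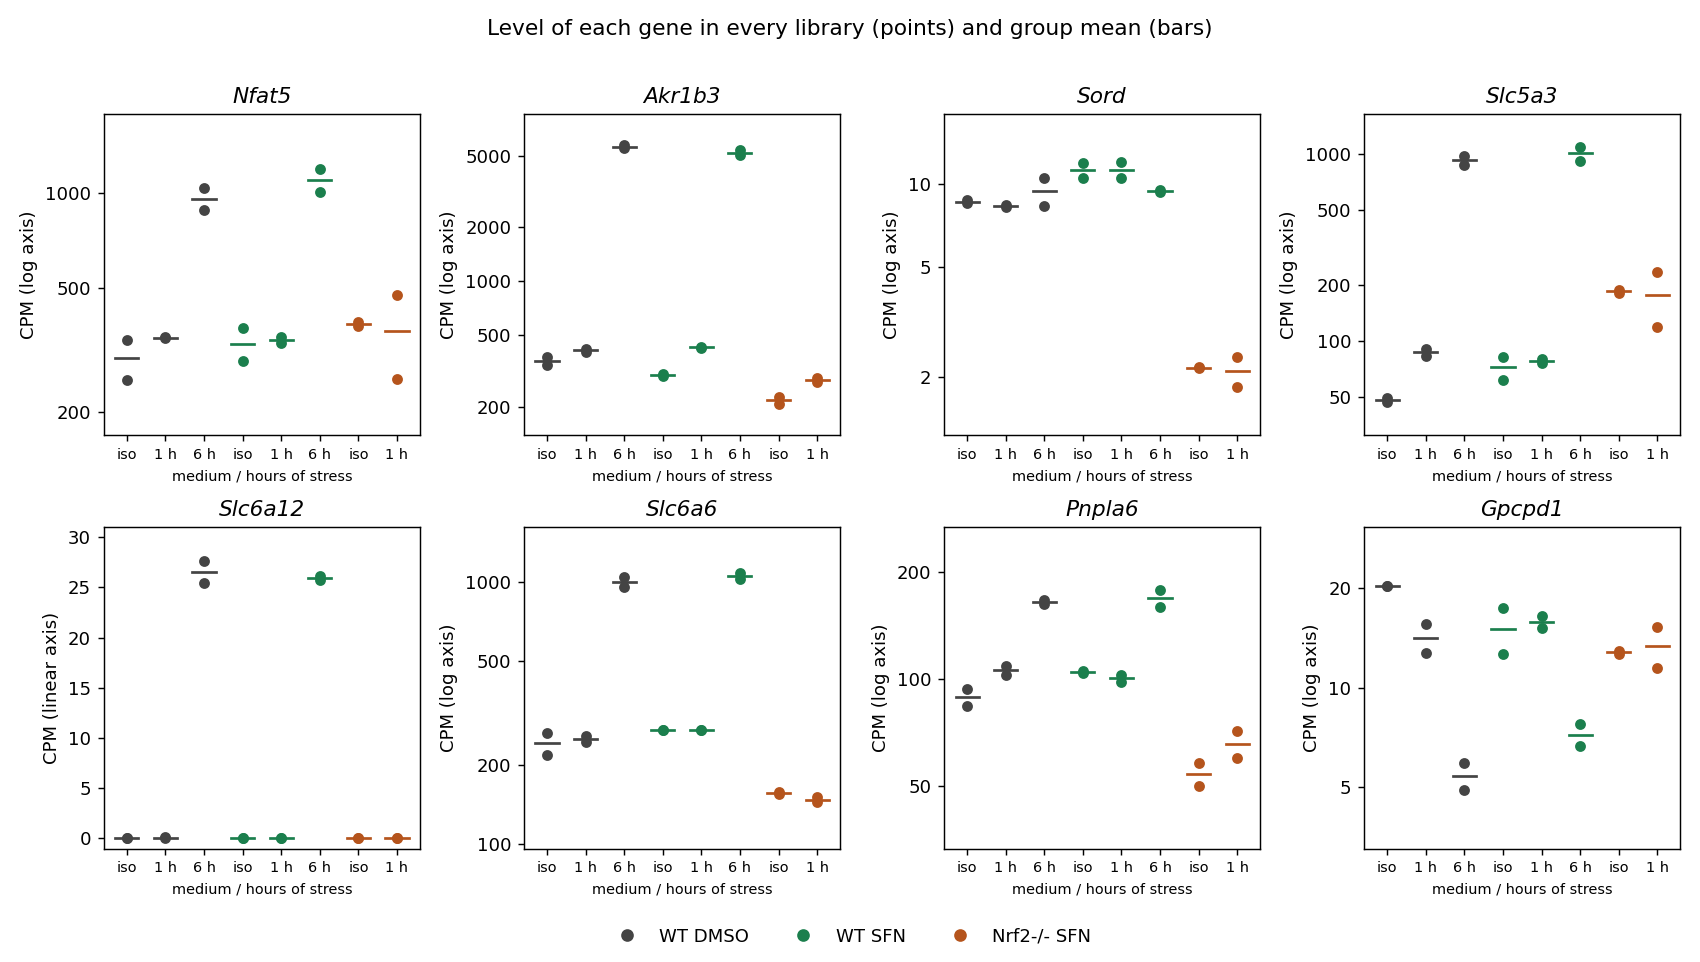
Level of each of the 8 genes in CPM (y axis, logarithmic except for Slc6a12) in each library (points) with the group mean (bar), for isosmotic medium, 1 h and 6 h of HS in WT DMSO (grey), WT SFN (green) and Nrf2-/- SFN cells (orange). Both 6 h groups stand above all others for Nfat5, Akr1b3, Slc5a3, Slc6a12, Slc6a6 and Pnpla6 and below all others for Gpcpd1, and Nrf2-/- cells are lowest for Sord and above the WT isosmotic and 1 h groups for Slc5a3.

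The comparison of 6 h of HS with isosmotic medium in WT DMSO cells asked how the osmolyte system responds to sustained stress without SFN. By edgeR's quasi-likelihood test with Benjamini-Hochberg adjustment over all genes, 7 of the 8 genes changed, beside 45.9% of all genes tested. Nfat5 and a gene for each of the 5 osmolytes rose, 6 genes in all beside 23.9% of all genes that rose. Gpcpd1 fell, beside 22% of all genes that fell, and Sord did not pass the test. The median log2 fold change was 1.87 over the 8 genes, with Slc6a12 at its bound, and 0.048 over all genes. With library totals alone in place of TMM scaling, the median of all genes was -0.12 and 41.0% of the called genes were higher, against 52.1% with TMM, and the 7 calls among the 8 genes stood. These are bulk cultures, so fewer cells of a kind and less RNA per cell cannot be told apart. The paper reported that hyperosmotic medium lowered the viability of these cells and that SFN raised it under stress. The 6 h libraries may thus come from surviving cells, in shares that differ between DMSO and SFN, and the part of this was not tested. The summed markers of proximal tubule, endothelium, leukocytes, intercalated cells and the collecting duct itself were also higher at 6 h, and their part in these results was not tested.

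Nfat5, the regulator itself, was at 341 and 253 CPM in isosmotic medium, at 347 and 345 CPM after 1 h and at 1039 and 888 CPM after 6 h. Both 6 h libraries lay far above the other 4, while the isosmotic and 1 h ranges lay close together. The rise at 6 h was 3.24-fold (95% interval 2.30 to 4.57, log2 fold change 1.70, SE 0.23, edgeR adjusted p = 4.36e-05). From 1 h to 6 h the log2 fold change was 1.48 (SE 0.23, edgeR adjusted p = 0.000138).

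Akr1b3 encodes aldose reductase, which makes sorbitol from glucose. It was at 340 and 380 CPM in isosmotic medium, 404 and 421 CPM after 1 h and 5496 and 5716 CPM after 6 h. At 6 h this gene alone took 0.500% and 0.519% of all counts in the 2 libraries. The groups did not overlap, and the 6 h libraries stood more than an order of magnitude above the rest. The rise was 15.6-fold (95% interval 13.3 to 18.2, log2 fold change 3.96, SE 0.10, edgeR adjusted p = 8.16e-12).

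Sord encodes sorbitol dehydrogenase, which removes sorbitol by oxidizing it to fructose. Its levels were 8.72 and 8.51 CPM in isosmotic medium, 8.24 and 8.40 CPM after 1 h and 8.34 and 10.5 CPM after 6 h. The 6 h range covered the isosmotic libraries and 1 of the 2 libraries at 1 h. The log2 fold change at 6 h was 0.13 (95% interval -0.23 to 0.49, edgeR adjusted p = 0.567), an interval that holds no change and excludes a rise as large as that of Akr1b3. Under scaling by library totals alone its sign turned, to -0.058, and without 6 h replicate 2 it was -0.051.

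Slc5a3 encodes SMIT1, the sodium-coupled transporter that brings myo-inositol into the cell. It was at 49.4 and 46.7 CPM in isosmotic medium, 90.1 and 83.2 CPM after 1 h and 978 and 872 CPM after 6 h. The 3 groups were in this order with no overlap. The 6 h rise was 19.2-fold (95% interval 13.05 to 28.4, log2 fold change 4.27, SE 0.26, edgeR adjusted p = 3.26e-08), the largest of the genes that were detected in both groups. Mrps6, a mitochondrial ribosomal protein gene that starts in the same window and shares the 159 bases, was at 27.7 and 33.4 CPM in isosmotic medium, 28.5 and 28.2 CPM after 1 h and 119 and 132 CPM after 6 h. Its log2 fold change was 2.04 at 6 h (SE 0.18, edgeR adjusted p = 7.15e-07) and -0.11 at 1 h (edgeR adjusted p = 0.789).

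Slc6a12 encodes BGT1, the betaine transporter whose upstream window is printed above. It had 0 and 0 counts in isosmotic medium, 2 and 4 counts after 1 h and 877 and 896 counts after 6 h, or 25.4 and 27.7 CPM at 6 h. A count of 0 allows up to 3 counts per library, or 0.0663 to 0.0715 CPM in the isosmotic libraries. Set against the higher of these floors, the 6 h mean of 26.5 ± 1.59 CPM (SD, n = 2) was at least 371-fold higher (edgeR adjusted p = 1.66e-08). The 1 h counts lay on either side of the 3 counts of the floor and did not pass the test (edgeR adjusted p = 0.0503), and counts this low tended to come in even numbers, so 2 counts need not be 2 independent fragments.

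Slc6a6 encodes TauT, which takes up taurine. It was at 266 and 219 CPM in isosmotic medium, 246 and 258 CPM after 1 h and 1043 and 956 CPM after 6 h. The 1 h libraries lay inside the isosmotic range, and the 6 h libraries lay well above it. The 6 h rise was 4.12-fold (95% interval 3.53 to 4.81, log2 fold change 2.04, SE 0.10, edgeR adjusted p = 3.24e-09).

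Glycerophosphocholine is made and broken down by different enzymes, and Pnpla6 and Gpcpd1 stand for these steps. Pnpla6 encodes neuropathy target esterase, which releases glycerophosphocholine from phosphatidylcholine. It was at 93.9 and 84.0 CPM in isosmotic medium, 109 and 103 CPM after 1 h and 163 and 167 CPM after 6 h, with no overlap between the groups. The 6 h rise was 1.86-fold (95% interval 1.58 to 2.19, log2 fold change 0.89, SE 0.11, edgeR adjusted p = 1.45e-05). Gpcpd1 encodes a glycerophosphocholine phosphodiesterase, which breaks the osmolyte down. It was at 20.2 and 20.3 CPM in isosmotic medium, 12.7 and 15.6 CPM after 1 h and 5.94 and 4.91 CPM after 6 h. Its groups did not overlap, and the 6 h level was 3.73-fold lower (log2 fold change -1.90, SE 0.19, edgeR adjusted p = 2.33e-06). Pnpla6 and Gpcpd1 moved in opposite directions. Pnpla7, a paralog of Pnpla6 and not one of the 8, is named here after its values were seen, and fell from 11.98 to 8.25 CPM at 6 h (log2 fold change -0.54, SE 0.15, edgeR adjusted p = 0.0104).

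After 1 h of HS in DMSO cells, 1 of the 8 genes passed edgeR's test, beside 11.2% of all genes. This was Slc5a3, whose log2 fold change was 0.85 (SE 0.23, edgeR adjusted p = 0.0305), or 1.80-fold (95% interval 1.28 to 2.55). The call was lost without any 1 of the 4 libraries compared, with edgeR adjusted p from 0.0967 to 0.203, although the log2 fold change stayed between 0.79 and 0.90. Gpcpd1 had a log2 fold change of -0.52 (edgeR adjusted p = 0.0879), Pnpla6 0.25 (0.173), Nfat5 0.22 (0.631), Akr1b3 0.20 (0.214), Slc6a6 0.055 (0.81) and Sord -0.051 (0.906). In a fit without both Nrf2-/- 1 h libraries, 4 genes passed, beside 22.1% of all genes, and Gpcpd1 (edgeR adjusted p = 0.0118) and Pnpla6 (0.0265) were among them; 4 passed without Nrf2-/- 1 h replicate 1 and 5 without replicate 2. From 1 h to 6 h, 7 of the 8 genes changed, beside 42.4% of all genes. Slc5a3 rose by a further 3.42 on the log2 scale (SE 0.25, edgeR adjusted p = 1.66e-07), Akr1b3 by 3.76, Slc6a6 by 1.99 and Pnpla6 by 0.64, and Gpcpd1 fell by 1.38 on the log2 scale. These comparisons share libraries with those at 6 h.

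With SFN pretreatment, 6 h of HS changed 7 of the 8 genes, beside 47.6% of all genes, and from 1 h to 6 h 7 of the 8 changed, beside 42.6%. Akr1b3 was at 297 and 306 CPM in isosmotic medium, 431 and 427 CPM after 1 h and 5038 and 5386 CPM after 6 h. Slc5a3 was at 61.8 and 82.1, then 79.5 and 76.3, then 1097 and 919 CPM. Slc6a12 had 0 counts in all 4 SFN libraries at isosmotic and 1 h, and 876 and 840 counts at 6 h, a mean that was at least 323-fold above the floor (edgeR adjusted p = 1.44e-08). For these 3 genes the 6 h libraries stood clear of the earlier ones. The same held for Slc6a6, at 1082 and 1025 CPM after 6 h against 272 and 272 CPM in isosmotic medium, for Pnpla6, at 159 and 178 CPM against 105 and 104 CPM, and, downwards, for Gpcpd1, at 7.75 and 6.67 CPM against 12.6 and 17.4 CPM.

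Log2 fold changes at 6 h under SFN were 1.74 for Nfat5 (SE 0.23, edgeR adjusted p = 3.41e-05), 4.11 for Akr1b3 (SE 0.11), 3.81 for Slc5a3 (SE 0.25), 1.95 for Slc6a6 (SE 0.10), 0.69 for Pnpla6 (SE 0.11) and -1.06 for Gpcpd1 (SE 0.19, edgeR adjusted p = 0.000347). Sord again did not pass the test, at -0.25 (95% interval -0.61 to 0.10, edgeR adjusted p = 0.228), and its 6 h level was 9.49 and 9.31 CPM against 11.9 and 10.5 CPM in isosmotic medium. After 1 h, Akr1b3 was the 1 gene of the 8 to pass, beside 9.52% of all genes, with a log2 fold change of 0.51 (SE 0.09, edgeR adjusted p = 0.00318). Its rise at 1 h with DMSO, which did not pass in the main fit, did pass by DESeq2 (0.23, DESeq2 adjusted p = 0.0404). It also passed with only the 12 WT libraries (0.22, edgeR adjusted p = 0.0115). The 1 h changes of Akr1b3 with SFN and DMSO differed by 0.31 (95% interval 0.029 to 0.59, edgeR adjusted p = 0.594), which did not pass. Slc5a3, the gene called at 1 h in DMSO cells, had 0.11 under SFN (95% interval -0.38 to 0.61, edgeR adjusted p = 0.861).

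In Nrf2-/- cells with SFN, 1 h of HS changed 1 of the 8 genes, beside 7.17% of all genes. Akr1b3 was at 227 and 208 CPM in isosmotic medium and at 290.4 and 275 CPM after 1 h, with no overlap. Its log2 fold change was 0.38 (SE 0.09, edgeR adjusted p = 0.0243), and the call was lost without isosmotic replicate 1 (0.44, edgeR adjusted p = 0.0646), without isosmotic replicate 2 (0.31, 0.229) and, narrowly, without either WT SFN 1 h library (0.0501). Without 1 h replicate 1 or replicate 2, the log2 fold change of Akr1b3 was 0.33 or 0.42. Slc5a3 was at 181 and 186 CPM in isosmotic medium and at 118 and 234 CPM after 1 h, so the 1 h libraries fell on either side. Its log2 fold change of -0.060 (edgeR adjusted p = 0.941) became 0.35 without 1 h replicate 1 (0.0643) and -0.64 without 1 h replicate 2 (0.00306). Nfat5 showed the same spread, with 378 and 388 CPM in isosmotic medium and 255 and 474 CPM after 1 h. Pnpla6 had a log2 fold change of 0.28 (edgeR adjusted p = 0.165), which was 0.40 without 1 h replicate 2 (0.00466).

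**Figure D2:**
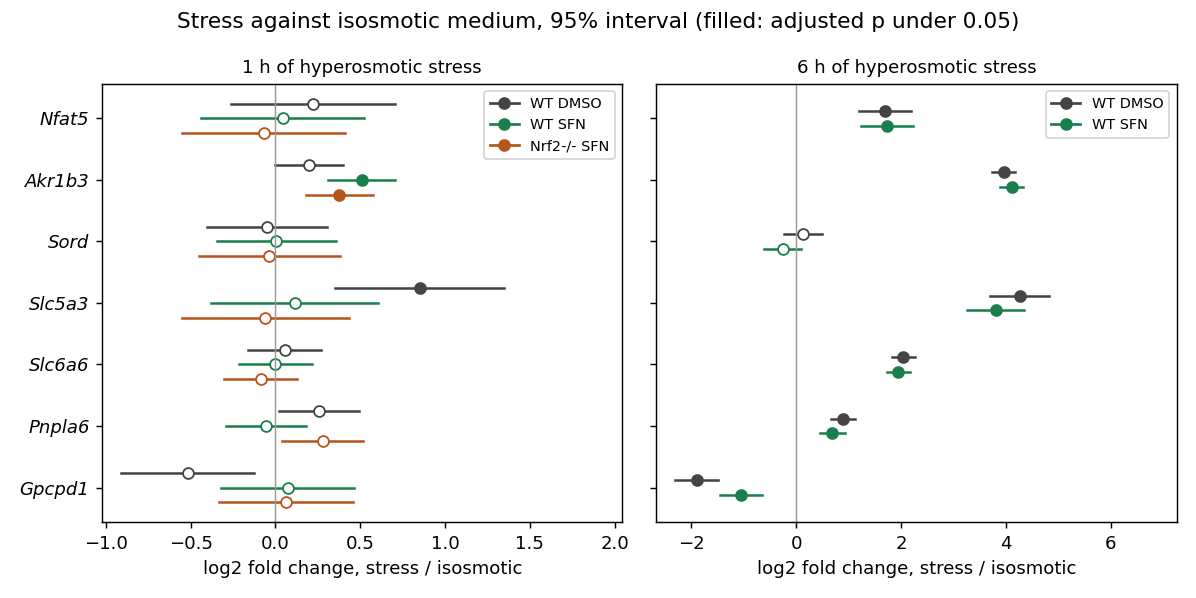
Log2 fold change of stress over isosmotic medium (x axis) with its 95% interval for 7 of the 8 genes after 1 h (left) and 6 h (right), in WT DMSO (grey), WT SFN (green) and Nrf2-/- SFN cells (orange); filled points have an edgeR adjusted p under 0.05. At 6 h the intervals of Nfat5, Akr1b3, Slc5a3, Slc6a6 and Pnpla6 lie above 0, that of Gpcpd1 lies below 0 and that of Sord crosses it; Slc6a12 is left out because its isosmotic libraries are at 0.

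SFN against DMSO was compared at each time to ask whether SFN pretreatment alters the level of these genes in WT cells. In isosmotic WT cells, edgeR called 0 of the 8 genes, beside 2.84% of all genes, with 4 at an unadjusted p under 0.05, and DESeq2 also called 0. Slc5a3 was at 61.8 and 82.1 CPM with SFN and 49.4 and 46.7 CPM with DMSO, without overlap. The log2 difference was 0.58 (95% interval 0.086 to 1.08, edgeR adjusted p = 0.236). Akr1b3 was at 297 and 306 CPM with SFN and at 340 and 380 CPM with DMSO, a log2 difference of -0.25 (95% interval -0.45 to -0.055, edgeR adjusted p = 0.19). Gpcpd1 (-0.43, edgeR adjusted p = 0.268), Sord (0.38, 0.286), Pnpla6 (0.23, 0.33), Slc6a6 (0.17, 0.46) and Nfat5 (0.15, 0.798) did not pass either. In a fit without both Nrf2-/- 1 h libraries, Slc5a3 (log2 difference 0.59, edgeR adjusted p = 0.00163) and Akr1b3 (-0.26, 0.0142) passed, beside 14.5% of all genes, and both also passed when either of these libraries alone was left out.

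After 1 h of HS, SFN against DMSO gave 0 of the 8 genes by edgeR, beside 0.0923% of all genes, with 2 at an unadjusted p under 0.05 and 0 by DESeq2. Sord was at 10.5 and 11.97 CPM with SFN and 8.24 and 8.40 CPM with DMSO, a log2 difference of 0.44 (95% interval 0.081 to 0.79, edgeR adjusted p = 1), and with only the 4 libraries compared its edgeR adjusted p was 0.0453. Akr1b3 (0.056, 95% interval -0.14 to 0.25), Nfat5 (-0.022, -0.51 to 0.46) and Slc5a3 (-0.15, -0.65 to 0.34) had intervals that held 0. At 6 h, edgeR and DESeq2 called 0 of the 8 genes, beside 0.041% of all genes, and 0 had an unadjusted p under 0.05. Nfat5 was at 1198 and 1008 CPM with SFN and 1039 and 888 CPM with DMSO, ranges that overlap, with a log2 difference of 0.20 (95% interval -0.29 to 0.68). Akr1b3 had -0.11 (95% interval -0.30 to 0.093) and Slc6a12 -0.032 (95% interval -0.48 to 0.42). Gpcpd1 was at 7.75 and 6.67 CPM with SFN and 5.94 and 4.91 CPM with DMSO, a log2 difference of 0.41 (95% interval -0.010 to 0.83, edgeR adjusted p = 1).

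Whether SFN altered the stress change itself was tested by an interaction term. For 1 h, edgeR called 0 of the 8 genes, beside 0.559% of all genes, with 3 at an unadjusted p under 0.05 and 0 by DESeq2. For 6 h it called 0, beside 0.759%, with 1 at an unadjusted p under 0.05 and 0 by DESeq2. The 1 h change of Slc5a3 differed by -0.74 on the log2 scale (95% interval -1.44 to -0.036, edgeR adjusted p = 0.624), and the 6 h change of Gpcpd1 by 0.84 (95% interval 0.27 to 1.41, edgeR adjusted p = 0.257). Without both Nrf2-/- 1 h libraries, these terms passed, at an edgeR adjusted p of 0.012 for Slc5a3, beside 3.03% of all genes, and 0.0329 for Gpcpd1, beside 3.96%. Both terms also passed when either of these libraries alone was left out.

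Nrf2-/- cells were compared with WT cells under SFN to ask what depends on Nrf2. In isosmotic medium 5 of the 8 genes changed, beside 34.1% of all genes. Slc5a3 was higher in Nrf2-/- cells, beside 15.7% of all genes that were higher, and Sord, Pnpla6, Slc6a6 and Akr1b3 were lower, beside 18.4% that were lower. After 1 h of HS, 5 of the 8 genes again changed, beside 31.5% of all genes, with 15.3% higher and 16.2% lower, and they were the same 5 genes in the same directions. The 2 comparisons use different libraries of the same cells. When only the 4 libraries compared were fitted at 1 h, Akr1b3 (edgeR adjusted p = 0.0845), Pnpla6 (0.0834) and Slc5a3 (0.11) no longer passed.

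Sord had the largest difference. It was at 2.16 and 2.15 CPM in Nrf2-/- and at 11.9 and 10.5 CPM in WT isosmotic cells, and at 1.84 and 2.36 CPM against 10.5 and 11.97 CPM at 1 h. No Nrf2-/- library reached a WT level. The level was 5.19-fold lower in isosmotic medium (log2 difference -2.38, SE 0.18, edgeR adjusted p = 1.41e-07) and 5.35-fold lower at 1 h (-2.42, SE 0.18, edgeR adjusted p = 1.49e-07). Without Nrf2-/- 1 h replicate 1 or replicate 2, the 1 h log2 difference was -2.24 or -2.61. Sord thus differed between genotypes, while edgeR's main fit called no change of it by HS or SFN. With library totals alone it passed for 6 h of HS with SFN (log2 fold change -0.49, edgeR adjusted p = 0.0217). With only the libraries compared it passed for SFN against DMSO at 1 h (log2 difference 0.43, edgeR adjusted p = 0.0453).

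Slc5a3 was at 181 and 186 CPM in Nrf2-/- isosmotic cells against 61.8 and 82.1 CPM in WT cells, and at 118 and 234 CPM against 79.5 and 76.3 CPM at 1 h. Both Nrf2-/- pairs lay above the WT pairs. The log2 difference was 1.35 in isosmotic medium (SE 0.23, edgeR adjusted p = 0.000462) and 1.18 at 1 h (SE 0.23, edgeR adjusted p = 0.00149). At 1 h it was 1.60 without Nrf2-/- replicate 1 (edgeR adjusted p = 7.88e-09) and 0.60 without Nrf2-/- replicate 2 (edgeR adjusted p = 0.00197). Mrps6 was also higher, by 0.68 (edgeR adjusted p = 0.00824) and 0.55 (0.029) on the log2 scale. At 1 h it was at 60.2 and 36.6 CPM in Nrf2-/- cells against 32.7 and 33.3 CPM in WT cells. Nrf2-/- replicate 1 was thus the higher library for Mrps6 and the lower one for Slc5a3.

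The other 3 genes were lower in Nrf2-/- cells. Pnpla6 was at 58.2 and 50.2 CPM against 105 and 104 CPM in isosmotic medium, and at 71.5 and 60.0 CPM against 103 and 98.1 CPM at 1 h (log2 differences -0.95 and -0.61, edgeR adjusted p = 1.13e-05 and 0.000648). Slc6a6 was at 157 and 155 CPM against 272 and 272 CPM, and at 144 and 150 CPM against 273 and 272 CPM (-0.80 and -0.89, edgeR adjusted p = 2.27e-05 and 9.73e-06). Akr1b3 was at 227 and 208 CPM against 297 and 306 CPM, and at 290.4 and 275 CPM against 431 and 427 CPM (-0.47 and -0.60, edgeR adjusted p = 0.00115 and 0.00017). In each of these comparisons the Nrf2-/- libraries lay below both WT libraries. Without Nrf2-/- 1 h replicate 1 or replicate 2, the 1 h log2 differences were -0.73 and -0.49 for Pnpla6, -0.84 and -0.92 for Slc6a6 and -0.63 and -0.56 for Akr1b3, and all passed edgeR's test.

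Nfat5 itself did not pass, with log2 differences of 0.21 in isosmotic medium (95% interval -0.27 to 0.69, edgeR adjusted p = 0.519) and 0.10 at 1 h (95% interval -0.39 to 0.58, edgeR adjusted p = 0.788). The 1 h value was 0.49 without Nrf2-/- replicate 1 and -0.42 without replicate 2. Gpcpd1 gave -0.23 (95% interval -0.63 to 0.16) and -0.24 (95% interval -0.64 to 0.15), the latter being -0.042 without Nrf2-/- 1 h replicate 1 and -0.46 without replicate 2. Slc6a12 had 1 and 0 counts in Nrf2-/- isosmotic cells and 0 and 0 at 1 h, where WT SFN cells also had 0, so no difference was detectable at this depth. The genotype by stress interaction at 1 h gave 0 of the 8 genes by edgeR, beside 0.123% of all genes, with 0 at an unadjusted p under 0.05 and 0 by DESeq2. For Slc5a3 this term was -0.17 (95% interval -0.87 to 0.52); it was 0.24 without Nrf2-/- 1 h replicate 1 and -0.75 without replicate 2 (edgeR adjusted p = 0.0182). For Pnpla6 it was 0.33 (edgeR adjusted p = 0.683), and 0.46 without replicate 2 (0.0316).

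**Figure D3:**
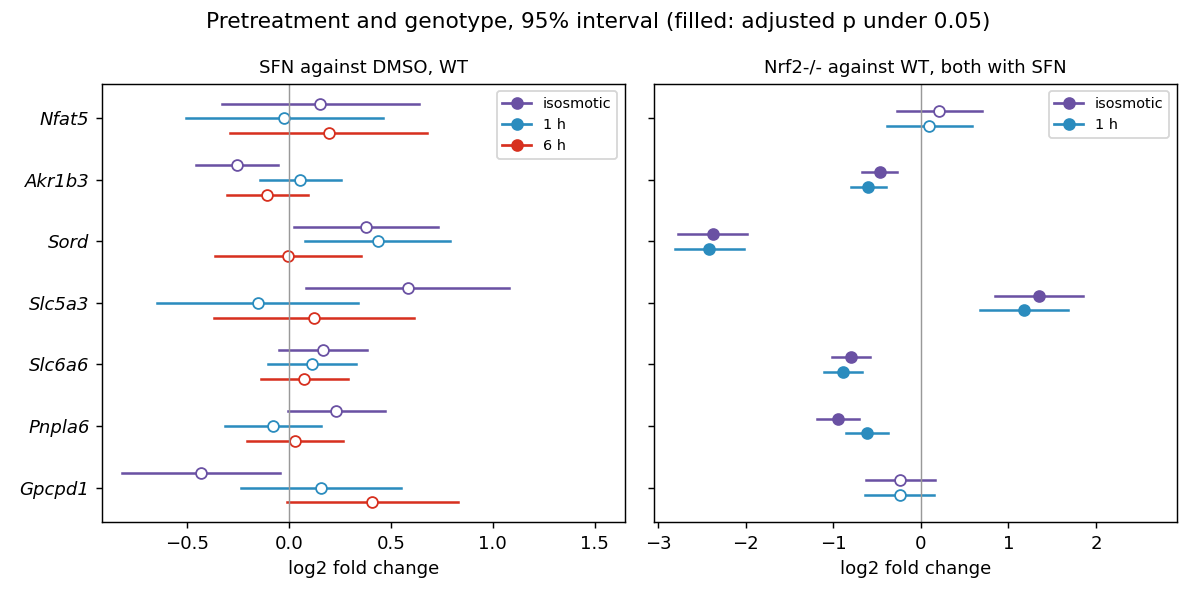
Log2 fold change (x axis) with its 95% interval for 7 of the 8 genes, SFN over DMSO in WT cells (left) and Nrf2-/- over WT cells, both with SFN (right), in isosmotic medium (purple), after 1 h (blue) and after 6 h of HS (red); filled points have an edgeR adjusted p under 0.05. No point of the left panel is filled, whereas Sord, Slc6a6, Pnpla6 and Akr1b3 lie below 0 and Slc5a3 above 0 at both times in the right panel; Slc6a12 is left out because it was at or near 0 in most groups.

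The order of the 8 group means differed between the genes. Steps are given between neighbours in this order, which came from the same values. Groups that are not neighbours can differ without such a step. Akr1b3 stepped from 5212 CPM in WT SFN 6 h cells to 429 CPM in WT SFN 1 h cells (edgeR adjusted p = 2.48e-11), and its last step, from Nrf2-/- 1 h to Nrf2-/- isosmotic cells, is the 1 h change given above. For Nfat5 the 6 h groups came first (1103 CPM with SFN, 963 CPM with DMSO), whose difference did not pass (edgeR adjusted p = 1), and the next group, Nrf2-/- isosmotic at 383 CPM, was lower than WT DMSO 6 h by 1.33 on the log2 scale (edgeR adjusted p = 0.00021). The remaining neighbours, down to 297 CPM in WT DMSO isosmotic cells, did not pass. Slc5a3 had 2 steps between neighbours (edgeR adjusted p = 1.88e-06 and 0.00381). The upper lay between the 6 h groups at 1008 and 925 CPM and the Nrf2-/- groups at 184 and 176 CPM. The lower lay between the Nrf2-/- groups and the WT isosmotic and 1 h groups, from 86.6 to 48.1 CPM. The WT groups were not 1 level, since WT DMSO cells at 1 h were called above WT DMSO isosmotic cells, as given above. Sord had 1 step, between 8.32 CPM in WT DMSO 1 h cells and 2.16 CPM in Nrf2-/- isosmotic cells (edgeR adjusted p = 1.13e-06). Slc6a6 had 2 steps, below the 6 h groups and above the Nrf2-/- groups, as did Pnpla6. For Gpcpd1 the step lay between Nrf2-/- isosmotic cells at 12.8 CPM and WT SFN 6 h cells at 7.21 CPM (edgeR adjusted p = 0.00199).

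Other genes of the pathway were read from 3 lists. Of 38 tested genes for other steps of osmolyte transport and metabolism (43 listed), 8 rose and 9 fell after 6 h of HS in DMSO cells, 17 of 38 beside the 45.9% of all genes called, with a median log2 fold change of -0.11, or -0.16 with genes at the floor set to their bound, beside 0.048 for all genes. With library totals alone 6 rose and 15 fell, and without both Nrf2-/- 1 h libraries 10 rose and 15 fell. Slc38a2, a neutral amino acid transporter, rose from 322 to 1951 CPM (log2 fold change 2.60, edgeR adjusted p = 1.9e-09), and Akr1b8, a relative of aldose reductase, from 49.2 to 179 CPM (1.86). Chka, which phosphorylates choline, rose from 217 to 637 CPM (1.55), whereas Cept1, which completes phosphatidylcholine synthesis, fell from 28.5 to 13.1 CPM (-1.12). Gdpd5, another glycerophosphodiester phosphodiesterase, fell from 11.3 to 3.65 CPM (-1.63, edgeR adjusted p = 6.67e-06) and Lrrc8e, a subunit of the volume-regulated anion channel through which osmolytes leave the cell, from 18.5 to 4.38 CPM (-2.08). At 1 h, 3 genes of this list rose (Slc38a2, Chdh and Gdpd5) and 2 fell (Chka and Lrrc8a). These 5 of 38 stand beside 11.2% of all genes called at 1 h. Gdpd5 and Chka thus had opposite signs at 1 h and 6 h, with log2 fold changes of 0.90 and -0.74 at 1 h.

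Of 24 tested genes described elsewhere as NFAT5 targets (26 listed, Slc38a2 being on both lists), 16 rose and 0 fell at 6 h, beside the 23.9% of all genes that rose and the 22% that fell, with a median log2 fold change of 2.07, or 1.87 with genes at the floor set to their bound. Under scaling by library totals alone, 15 rose and 1 fell. Hspa1b, an inducible HSP70, rose from 81.8 to 2972 CPM (log2 fold change 5.18, edgeR adjusted p = 5.43e-11); it and Hspa1a are near-identical copies, so the split of reads between them is uncertain. Hspa4l rose from 178 to 1807 CPM (3.34), Ptgs2, which encodes COX-2, from 325 to 1815 CPM (2.48) and Atp1b1, the beta subunit of the sodium pump, from 169 to 789 CPM (2.22). At 1 h, 5 rose and 3 fell, 8 of 24 beside 11.2% of all genes called. The median was 0.19, or 0.12 with genes at the floor set to their bound. Ptgs2 was among those that fell (log2 fold change -0.57, edgeR adjusted p = 0.00698), and Hspa1b among those that rose (2.03, edgeR adjusted p = 9.05e-07).

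The list of regulators and partners of NFAT5 held kinases, carriers and partners, and also its relatives Nfatc1, Nfatc2, Nfatc3 and Nfatc4. Of its 33 genes, 11 rose, Nfatc1 and Nfatc2 among them, and 5 fell at 6 h, with a median log2 fold change of 0.21. These 16 of 33 are close to the 45.9% of all genes called, so the genes named next are given as single values. Spag9, a scaffold for MAP kinases, rose from 105 to 265 CPM (1.33, edgeR adjusted p = 1.1e-06), and Map3k3 from 66.6 to 116 CPM (0.80). The p38 kinases' activators differed, with Map2k3 rising from 197 to 297 CPM (0.59) and Map2k6 falling from 6.21 to 1.79 CPM (-1.79). Kpnb1, the nuclear import receptor importin beta, rose from 1093 to 1771 CPM (0.70), and Dhx9, an RNA helicase, from 442 to 652 CPM (0.56). At 1 h 0 rose and 2 fell, Map2k3 by 0.62 and Ccm2 by 0.36 on the log2 scale. These 2 of 33 stand beside 11.2% of all genes called at 1 h. Under library totals alone the list split 9 to 9 at 6 h.

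**Figure D4:**
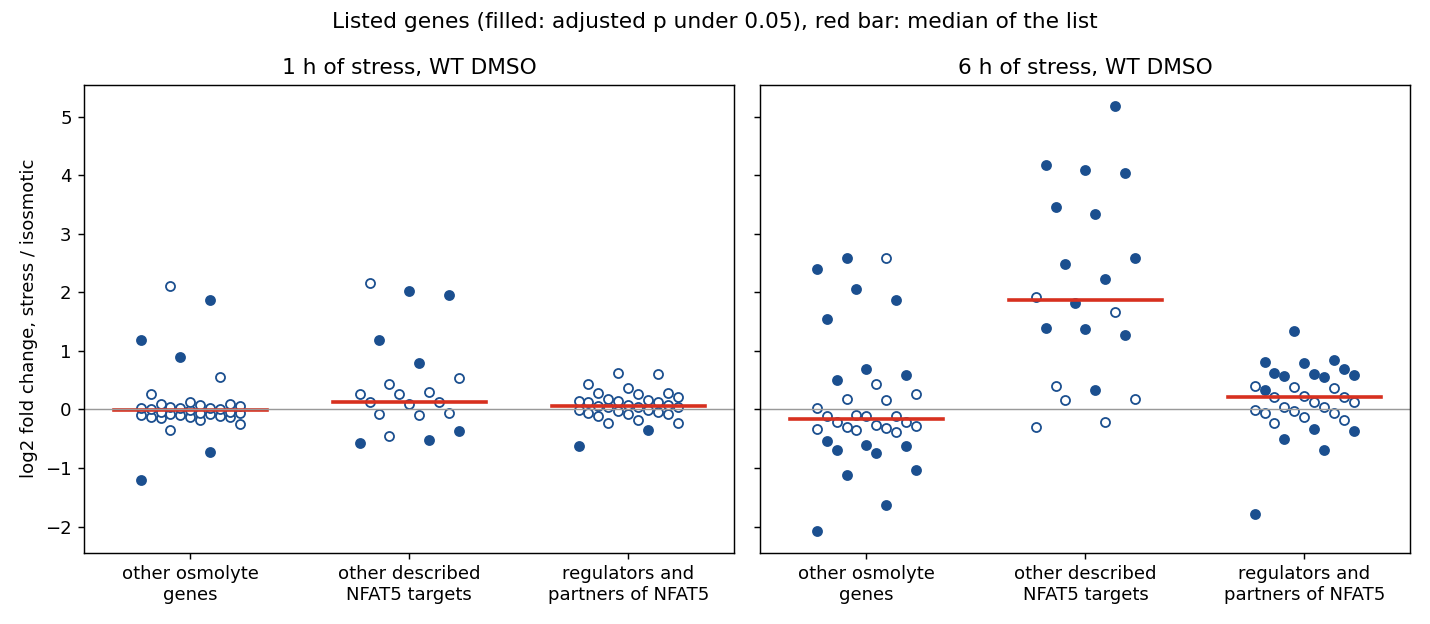
Log2 fold change of stress over isosmotic medium in WT DMSO cells (y axis) for each gene of the 3 lists after 1 h (left) and 6 h (right), with filled points for an edgeR adjusted p under 0.05 and a red bar at the list median with genes at the floor set to their bound. Genes with a group at or under 3 counts per library are not drawn (6 at 1 h, 5 at 6 h). At 6 h the genes described as NFAT5 targets centre on 1.87, while the other lists centre on -0.16 and 0.21.

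For SFN against DMSO in isosmotic cells, edgeR called 0 of the 38 osmolyte genes (7 at an unadjusted p under 0.05, 2 by DESeq2), 0 of the 33 regulators (7 at an unadjusted p under 0.05, 3 by DESeq2) and 7 of the 24 NFAT5 targets (10 by DESeq2). The edgeR counts stand beside 2.84% of all genes. Of the 7, Hspa1b, Hspa1a and Hspa4l were higher with SFN, and Ccl2, Ptgs2 and Sgk1 were among the 4 that were lower. After 1 h of HS, edgeR called 0 of the 24 NFAT5 targets, with 4 at an unadjusted p under 0.05 and 1 by DESeq2, and 0 of the 38 and the 33 genes of the other lists, with 1 and 0 at an unadjusted p under 0.05 and 0 by DESeq2. After 6 h, edgeR and DESeq2 called 0 genes of the 3 lists, with 3 osmolyte genes, 3 NFAT5 targets and 0 regulators at an unadjusted p under 0.05. Of all genes, edgeR called 0.0923% at 1 h and 0.041% at 6 h. The SFN by stress interaction called 4 of the 24 NFAT5 targets at 1 h and 4 at 6 h, beside 0.559% and 0.759% of all genes. At both times the stress change with SFN was higher for Ccl2 and Ptgs2 and lower for Hspa1a and Hspa1b. These genes also differed by SFN in isosmotic medium, in the opposite direction. In the osmolyte and regulator lists the interaction called 0 genes, with 3 and 3 at an unadjusted p under 0.05 at 1 h and 2 and 1 at 6 h. In Nrf2-/- against WT isosmotic cells, 8 genes were higher and 5 lower in the osmolyte list, 4 and 7 in the NFAT5 target list and 7 and 4 in the regulator list. The called genes, 13 of 38, 11 of 24 and 11 of 33, stand beside 34.1% of all genes, and the first and last of these shares are close to it. Lrrc8c, another subunit of the anion channel, was higher in Nrf2-/- cells (135 against 46.8 CPM, log2 difference 1.53, edgeR adjusted p = 4.3e-05), as was Ptgs2 (739 against 160 CPM, 2.21), whereas Hspa1a was lower (0.770 against 11.6 CPM, -3.90).

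As a description, the genes whose log2 CPM followed each member most closely over the 16 libraries were sought among 12291 genes with a mean of at least 50 counts. Nfat5 ran closest to Gatad2b (r = 0.990), Mpp5 and Hipk1, Slc5a3 to Kdm7a (0.995), Sbno1 and Heca, and Akr1b3 to Klrg2 (0.995), Pfkfb3 and Atp1b1. Slc6a6 ran closest to Orai2 (0.997), Tns3 and Cdc6, Slc6a12 to Prss35 (0.990), Nr4a2 and Tfap2a, and Pnpla6 to Adcy6 (0.987), Mink1 and Man1b1. Sord ran closest to Gsta1 (0.990), Khdrbs3 and Htra1, and Gpcpd1 to Mlkl (0.964), Rpp40 and Zkscan6. The libraries share 8 conditions, so these values rest on few independent points, and no gene of the 8 was among the 3 closest to another.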

How the data were processed

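RNA-seq was analysed for 16 libraries of mIMCD3 cells, 2 biological replicates in each of 8 groups. Groups and replicate numbers came from the sample labels. One label names primary cells as the RNA source where all others name mIMCD3. Per the methods, Hisat2 alignment to mm10 and Samtools sorting preceded FeatureCounts counting; the submitters' processing notes name Bowtie2, SAMtools and featureCounts. Versions, annotation and strand setting were not given in the sources used here. The authors deposited raw counts per gene symbol, without normalization. Lines without a symbol were left out (2 lines of replicate 1 of the WT DMSO isosmotic group, and 3 of replicate 1 of the Nrf2-/- isosmotic group). Of counts from 1 to 10, 58.0% to 68.5% per library were even, so a count may not be an independent fragment, and floors cover counting error only.

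Counts were tested in R 4.3.3 with edgeR 4.0.16 (TMM scaling, the filter on low counts, robust quasi-likelihood F-test, 1 coefficient for each of 8 groups), with Benjamini-Hochberg adjustment over 19509 genes and calls at an adjusted p under 0.05. The main fit used all 16 libraries, so p-values measure how far replicate libraries differ within all 8 groups, not only those compared. This takes in the Nrf2-/- SFN cells at 1 h, whose 2 libraries stood apart from each other. With 2 libraries a group, an exact permutation test could not go below 0.333. CPM used TMM scaling. DESeq2 1.42.0, other scaling, filters and sets of libraries were alternatives. The script was tested on simulated data.

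The 8 genes, the lists and the tests were chosen with earlier results of these data known. Named genes were the 8 genes, the targeted gene, the SFN check genes, genes overlapping them, at most 6 called genes per list and comparison by adjusted p, and the 3 genes closest in log2 CPM (prior count 2, mean count of at least 50). Positions came from an annotation of GRCm38 and start-site windows from RefSeq.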

Additional observations from a re-analysis of the deposited data

How the results depend on the processing

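The counts of called genes among the 8 for 6 h of HS and for 6 h against 1 h, 7 with DMSO and with SFN, were 6 with at least 10 counts in every library, which leaves out Slc6a12, and with SFN 8 with library totals alone, and stood under the other alternatives. They were unchanged under each alternative for 1 h of HS in WT SFN cells (1), for SFN against DMSO at 6 h (0) and for genotype in isosmotic medium (5). The count for 1 h of HS in DMSO cells, 1 as reported, was 2 with DESeq2, RLE size factors, library totals alone or no filter, 0 with at least 10 counts in every library, 3 with only the libraries compared, 5 with only the 12 WT libraries, 4 without both Nrf2-/- 1 h libraries, and 0 to 5 when each library was left out (5 without Nrf2-/- 1 h replicate 2). For 1 h of HS in Nrf2-/- cells, 1 as reported, it was 0 with library totals alone or only the libraries compared, and 0 to 3 when each library was left out (3 without Nrf2-/- 1 h replicate 2). For SFN against DMSO in isosmotic medium, 0 as reported, it was 1 with no filter or only the libraries compared, 3 with the WT libraries, 2 without both Nrf2-/- 1 h libraries, and 0 to 2 when each library was left out. With only the libraries compared, SFN against DMSO at 1 h gave 2 in place of 0, and genotype at 1 h gave 2 in place of 5. The SFN interaction at 1 h, 0 as reported, was 1 with no filter, only the libraries compared, the WT libraries, or without both Nrf2-/- 1 h libraries, and 0 to 1 when each library was left out; that at 6 h, also 0, was 1 with the WT libraries or without both Nrf2-/- 1 h libraries, and 0 to 1 when each library was left out. The genotype interaction was 0 to 2 when each library was left out, with 2 without Nrf2-/- 1 h replicate 2; the other counts above 0 came from leaving out either Nrf2-/- 1 h library. The cause of these changes was not tested.

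Of 1618 values of 66 gene and comparison pairs under the alternatives, 1549 kept their direction and side of the threshold, 41 passed it in addition, 14 no longer passed and 14 reversed. Reversed under library totals alone were Sord at 6 h with DMSO (-0.058) and Nfat5 by genotype at 1 h (-0.014). When each library was left out, the log2 values that reversed ran from -0.051 to 0.28 for Sord at 6 h with DMSO, -0.081 to 0.20 for Slc6a6 at 1 h with DMSO, -0.081 to 0.33 for Slc5a3 at 1 h with SFN, -0.64 to 0.35 for Slc5a3 at 1 h in Nrf2-/- cells, -0.044 to 0.39 for Nfat5 by SFN in isosmotic medium, -0.0519 to 0.0073 for Nfat5 by SFN at 1 h, -0.0948 to 0.028 for Slc6a12 by SFN at 6 h, -0.45 to 0.019 for Gpcpd1 by genotype in isosmotic medium, -0.42 to 0.49 for Nfat5 by genotype at 1 h and -0.75 to 0.24 for the genotype interaction of Slc5a3. None of these had passed the test as reported.

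Library totals alone moved the median of all genes at 6 h from 0.048 to -0.12 (DMSO) and from 0.085 to -0.13 (SFN), and the share of calls that were higher from 52.1% to 41.0% and from 51.9% to 39.0%; Sord at 6 h with SFN then passed (-0.49, edgeR adjusted p = 0.0217). The list counts under library totals alone and without both Nrf2-/- 1 h libraries were additions made after the data were seen.

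Libraries with the same replicate number shared little deviation, with correlations of deviations from -0.0794 to 0.123 over 28 pairs of groups and 1 over 0.1. Whether they were handled together cannot be told from these values. A replicate block left each count of called genes as reported, for example 7 at 6 h and 1 at 1 h with DMSO. Depth limited Slc6a12, which was at or under 4 counts outside the 6 h groups.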
